A study of Homo sapiens with 96 samples.

Results

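Splicing events of 46 genes of mitosis and cell division were examined in poly(A)-RNA seq of A549, a human cell line derived from an adenocarcinoma of the lung. The genes were chosen by name. Every event whose gene symbol was among them was taken, which gave 1354 of the 239131 events listed in the series. They comprised 924 skipped exons (SE), 301 pairs of mutually exclusive exons (MXE), 63 alternative 3′ splice sites (A3SS), 41 alternative 5′ splice sites (A5SS), and 25 retained introns (RI). The 30 libraries fell into 10 groups of 3. Cells of the same line received 1 µM GSK591, an inhibitor of the arginine methyltransferase PRMT5, for 2, 4, or 7 days, or 1 µM MS023, an inhibitor of the Type I methyltransferases, for 2, 4, or 7 days, or 1 µM of each (co-treatment) for 2 or 4 days. Control cells received 0.01% DMSO for 4 or 7 days. Inhibitor groups of 2 and 4 days were set against the same 4-day DMSO libraries, so inhibition at 2 days and a difference of 2 days in culture cannot be told apart there, and the 7-day groups were set against 7-day DMSO. The labels of the 7-day DMSO libraries name no table, so that the control columns of both 7-day tables hold these libraries was inferred, and every 7-day value and the comparison of the DMSO groups depend on it. The 3 libraries of a group are called a, b, and c. No label says that they came from separate cultures, so the spread between these libraries may be technical. The p-values of events rest on this spread moderated over all events of a type. The spread used for an event can thus be smaller than its own.

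To divide, a cell activates cyclin B-CDK1, which the CDC25 phosphatases switch on and which the aurora and polo kinases assist. Kinetochores assembled on centromeres then attach the chromosomes to a spindle built by motors and microtubule-bundling proteins, while the spindle checkpoint restrains the anaphase-promoting complex (APC/C), the ubiquitin ligase that releases separase. Anillin, ECT2, and the centralspindlin complex finally pinch the cell apart. Transcripts of many of these genes are made mainly in G2 and mitosis, so their level in a population follows the share of dividing cells. Splicing of such a transcript is read here as Ψ, the share of transcripts that keep the alternative segment, computed from reads that support each form and divided by their effective lengths. ΔΨ is the mean Ψ of the inhibitor libraries minus that of the reference libraries. For MXE, Ψ refers to the exon that comes first in the transcript.

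The segments below were picked, with their values known, from named events called in 2 or more comparisons with DMSO, and they are shown so that the exon, its reading frame, and its splice sites can be seen. Each is written 5′ to 3′ on the coding strand from GRCh37, with coordinates of the alternative segment in hg19. For exons, capitals mark the exon, and lower case marks the last 20 bases of the intron before it and the first 6 bases of the intron after it.
CDC25B exon 6 of 123 nt (chr20:3781390-3781512, + strand): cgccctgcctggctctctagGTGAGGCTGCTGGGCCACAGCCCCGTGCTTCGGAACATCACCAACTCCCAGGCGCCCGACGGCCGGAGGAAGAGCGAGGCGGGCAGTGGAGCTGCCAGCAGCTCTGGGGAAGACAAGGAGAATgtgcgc
CDC25C exon 3 of 95 nt (chr5:137665242-137665336, - strand): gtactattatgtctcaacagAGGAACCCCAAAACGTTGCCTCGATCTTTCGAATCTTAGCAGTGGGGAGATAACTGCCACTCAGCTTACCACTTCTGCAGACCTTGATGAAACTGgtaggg
AURKB exon 6 of 139 nt (chr17:8110068-8110206, - strand): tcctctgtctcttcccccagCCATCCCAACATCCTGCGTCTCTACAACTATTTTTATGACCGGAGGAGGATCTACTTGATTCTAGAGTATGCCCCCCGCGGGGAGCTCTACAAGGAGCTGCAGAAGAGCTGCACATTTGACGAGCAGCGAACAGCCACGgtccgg
ANAPC7 exon 4 of 112 nt (chr12:110826317-110826428, - strand): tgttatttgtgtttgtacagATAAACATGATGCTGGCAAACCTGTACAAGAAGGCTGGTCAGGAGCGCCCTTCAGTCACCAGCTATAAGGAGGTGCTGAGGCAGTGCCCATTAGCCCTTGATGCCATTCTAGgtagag
KIF23 exon 22 in a form of 79 nt (chr15:69738625-69738703, + strand): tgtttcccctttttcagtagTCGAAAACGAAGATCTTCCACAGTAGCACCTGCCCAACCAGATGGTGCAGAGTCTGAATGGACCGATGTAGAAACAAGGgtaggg
ECT2 exon 4 of 93 nt (chr3:172473273-172473365, + strand): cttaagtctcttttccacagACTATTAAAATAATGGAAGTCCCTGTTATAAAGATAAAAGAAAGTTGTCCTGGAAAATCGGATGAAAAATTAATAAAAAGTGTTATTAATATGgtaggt
INCENP exon 11 of 12 nt (chr11:61908972-61908983, + strand): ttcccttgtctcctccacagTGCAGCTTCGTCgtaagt

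Exon numbers follow the canonical transcript of the GENCODE annotation, in which all 7 segments lie in coding exons. For KIF23 the canonical exon 22 measures 82 nt and starts 3 bases earlier, and the 79-nt form is annotated in 1 of the 10 transcripts that cover it. The exons of CDC25B, ECT2, and INCENP have lengths divisible by 3, so that skipping them keeps the reading frame, whereas those of CDC25C, AURKB, ANAPC7, and KIF23 do not. Among all 504 member cassette segments tested, 42.3% kept the frame, and among the 111 that were called in at least 1 comparison with DMSO the share was 40.5%. For the retained introns, capitals mark the first 6 and last 3 bases of the intron, which lie at the splice sites. The 3 short ones are shown whole.
ANAPC5 intron 14 of 76 nt (chr12:121756228-121756303, - strand): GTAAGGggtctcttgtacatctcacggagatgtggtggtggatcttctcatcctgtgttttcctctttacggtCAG
PRC1 intron 4 of 78 nt (chr15:91524900-91524977, - strand): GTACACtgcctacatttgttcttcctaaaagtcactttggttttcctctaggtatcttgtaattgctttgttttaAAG
CENPT intron 5 of 100 nt (chr16:67866258-67866357, - strand): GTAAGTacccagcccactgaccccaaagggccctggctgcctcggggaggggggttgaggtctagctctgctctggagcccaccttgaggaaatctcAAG
The other introns are shown by their ends, with 3 exon bases and 20 intron bases at the 5′ splice site and with 30 intron bases and 3 exon bases at the 3′ splice site.
CENPT intron 11 of 301 nt, 5′ splice site (chr16:67864273-67864295, - strand): ataGTGAGTgtgtggcactggtg
CENPT intron 11 of 301 nt, 3′ splice site (chr16:67863989-67864021, - strand): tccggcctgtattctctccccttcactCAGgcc
ANAPC5 intron 3 of 864 nt, 5′ splice site (chr12:121784679-121784701, - strand): tagGTATGAaactcttctaagaa
ANAPC5 intron 3 of 864 nt, 3′ splice site (chr12:121783832-121783864, - strand): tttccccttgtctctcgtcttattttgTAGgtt
All of these introns lie between coding exons and have GT and AG ends.

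Libraries held between 72359972 and 110790627 reads over all events of a table, of which 168115 to 645037 fell on member events, and a read that touches several events is counted in each. Library a of GSK591 at 2 days stood apart, with event reads per gene that differed from its group's median by 0.541 on the log2 scale on average over genes, while every other library stayed at or below 0.111. Each ΔΨ of a named event that uses it is therefore also given without it. DMSO libraries of 7 days differed from those of 4 days in 6.49% of all events tested and in 21 of 498 member events (13 in the stricter fit defined below, and 5 when events with 1 form at 0 reads are kept). Of the epithelial markers, KRT8, KRT18, EPCAM, and CDH1 carried reads and KRT19 had no event. Of the leukocyte, endothelial, and fibroblast markers reported, PTPRC, PECAM1, and DCN had no event, and the highest count of 1 event was 18 for CD3E, 75 for CD14, 16 for CDH5, and 325 for COL1A1, against 411660 for KRT8.

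The reads that member genes contributed fell with treatment, most under co-treatment and under GSK591 from 4 days on. Over the 424 member events listed in all 8 tables, 0.523%, 0.548%, and 0.533% of the event reads of the 4-day DMSO libraries fell on members. The shares were 0.357%, 0.355%, and 0.344% with GSK591 and 0.265%, 0.264%, and 0.269% with co-treatment at 4 days, and 0.25%, 0.283%, and 0.261% with GSK591 at 7 days against 0.487%, 0.484%, and 0.513% with 7-day DMSO. With MS023 the shares lay between 0.499% and 0.515% at 2 days, between 0.456% and 0.464% at 4 days, and between 0.403% and 0.414% at 7 days. At 2 days co-treatment gave 0.407% to 0.414%, and GSK591 gave 0.455% in library a and 0.507% and 0.504% in libraries b and c. Every inhibitor group lay below all DMSO libraries of its comparison without overlap, as did 7-day DMSO below 4-day DMSO. The two-sided exact permutation test gave p = 0.1 for each of these 9 comparisons, the smallest that 3 libraries against 3 allow. Fewer dividing cells and less of these transcripts per cell cannot be told apart in such bulk libraries.

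**Figure D1:**
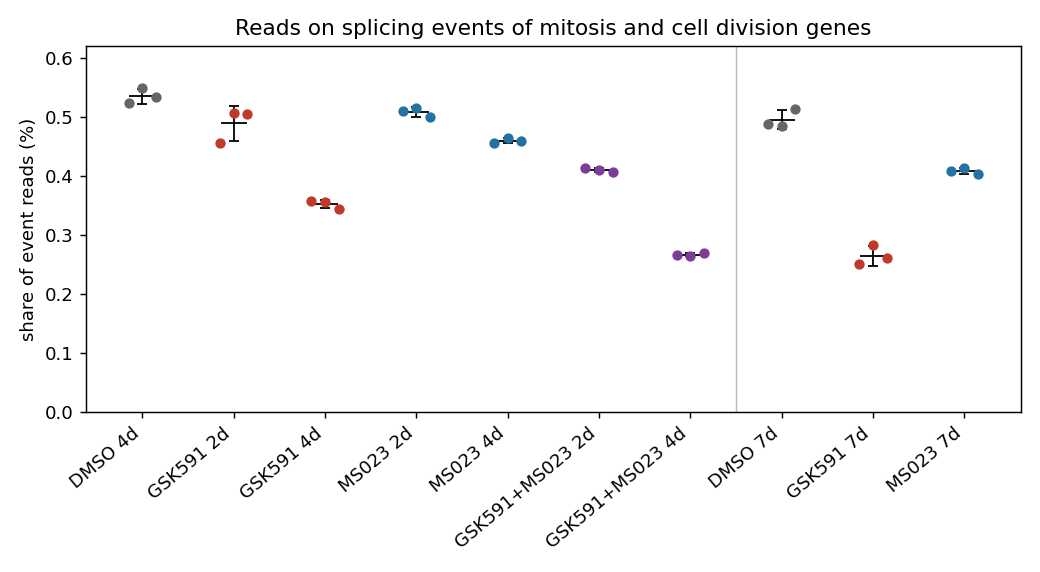
Share of event reads that fall on the 424 member events listed in all 8 tables, in percent, by group, with 1 point per library and a bar for the mean and SD of 3 libraries. The groups at 4 days run from DMSO (mean 0.535%) through MS023 (0.46%) and GSK591 (0.352%) to co-treatment (0.266%).

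Gene by gene, the same reads were expressed per 1000000 event reads for the 45 members with an event in all tables (ANAPC2 had none), beside all 9927 genes with at least 10 such reads in every library. Values compare libraries for 1 gene and not genes with each other, since events per gene differ. With GSK591 at 4 days, 43 of 45 members had all 3 libraries below all DMSO libraries, which held for 33.7% of all genes, and the median log2 ratio of members was -0.773 against -0.0416 for all genes. For co-treatment at 4 days the count was 42 of 45 (38.5% of all genes), with a median of -1.41, and for GSK591 at 7 days it was 41 of 45 (45.7%), with a median of -1.21. MS023 gave 33 of 45 at 4 days (30.4%) and 30 of 45 at 7 days (41.9%), with medians of -0.268 and -0.282. At 2 days the counts were 36 of 45 for co-treatment (39.7%), 15 of 45 for MS023 (28.6%), and 13 of 45 for GSK591 (26.3%). Without library a the 2-day GSK591 count was 17 of 45 (31.4%), and the median log2 ratio moved from -0.115 to 0.00205. Between the DMSO groups, 25 of 45 members were lower at 7 days (34% of all genes), with a median of -0.239. These ratios are a description without a test.

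Cyclin B1 (CCNB1), the activating subunit of CDK1, had 320, 335, and 331 reads per 1000000 with 4-day DMSO, 183, 190, and 172 with GSK591, 91.6, 88.5, and 89.8 with co-treatment, and 257, 268, and 263 with MS023 at 4 days. The 4 groups did not overlap, and co-treatment was lowest, at 0.274 of DMSO. Survivin (BIRC5), a subunit of the chromosomal passenger complex, went from 256, 251, and 256 with DMSO to 48.3, 46.4, and 48.1 with co-treatment, a ratio of 0.187, the lowest among members. AURKB, the kinase of that complex, went from 220, 210, and 213 to 89.7, 90.1, and 74.5 with GSK591 and 43.2, 48.7, and 44.1 with co-treatment. With MS023 at 4 days AURKB had 197, 192, and 183, below DMSO and well above the other inhibitor groups. Co-treatment at 4 days also left 0.19 of the DMSO level of the checkpoint kinase BUB1, 0.195 of the cytokinesis motor KIF20A, 0.203 of the centromeric histone CENPA, 0.24 of the APC/C activator CDC20, and 0.295 of the kinase PLK1. A few members moved less. CENPT, a kinetochore anchor used throughout the cell cycle, had 176, 176, and 169 with DMSO and 207, 190, and 213 with co-treatment, and the APC/C scaffold subunit ANAPC5 had 413, 461, and 405 and 403, 428, and 425. The checkpoint protein MAD1L1 varied between groups. It was at 0.337 of 4-day DMSO with co-treatment at 2 days, the lowest ratio among members in that comparison, and at 0.589 with co-treatment at 4 days. Against 7-day DMSO it was at 0.666 with MS023, but at 1.34 with GSK591.

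**Figure D2:**
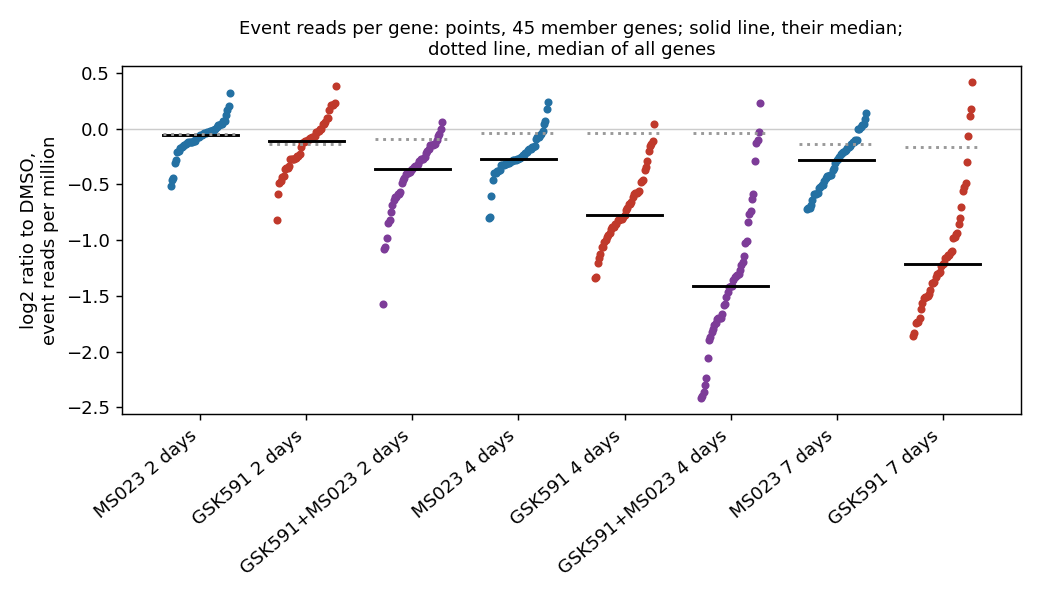
Log2 ratio of mean event reads per 1000000 to DMSO for each of 45 member genes in the 8 comparisons, with 1 point per gene, a solid line for their median, and a dotted line for the median of all 9927 genes. The medians of members lie at -0.773 for GSK591 at 4 days, -1.41 for co-treatment at 4 days, and -1.21 for GSK591 at 7 days, while that of all genes stays between -0.167 and -0.0364.

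Within the transcripts, member events were called about as often as all events. An event was tested where every library had at least 10 reads on it, and it was called at an adjusted p under 0.05 in a quasi-binomial fit of both read counts. A stricter fit, chosen once the data were seen, lets the dispersion follow a trend on the reads of the rarer form. Where leaving out 1 library ended the call of a named event, the highest adjusted p of such refits stands beside it with those libraries, and where the stricter fit ended it, so does its adjusted p. Comparisons between inhibitor groups and between DMSO groups were assembled from pairs of tables, and events with 1 form at 0 reads in all 6 libraries were left out of them, a choice made once the counts were seen. Where keeping such events ended a call, that adjusted p is given as well. With GSK591 the called member events numbered 62 of 746 (8.31%, against 7.02% of all events, and 37 in the stricter fit) at 2 days, 75 of 707 (10.6%, against 11.2% of all events, and 54 in the stricter fit) at 4 days, and 55 of 606 (9.08%, against 8.93% of all events, and 28 in the stricter fit) at 7 days. MS023 gave 19 of 751 (2.53%, against 3.16% of all events, and 5 in the stricter fit) at 2 days, 25 of 696 (3.59%, against 3.75% of all events, and 14 in the stricter fit) at 4 days, and 28 of 626 (4.47%, against 4.75% of all events, and 11 in the stricter fit) at 7 days. Co-treatment gave 102 of 758 (13.5%, against 13.4% of all events, and 67 in the stricter fit) at 2 days and 98 of 675 (14.5%, against 14.7% of all events, and 73 in the stricter fit) at 4 days. These shares lie near those of all events, so the counts are not a result about these genes. In the stricter fit 4.35%, 7.33%, and 5.15% of all events were called with GSK591 at 2, 4, and 7 days. Its shares of all events were 1.21%, 1.57%, and 2.24% with MS023, and 8.83% and 10.4% with co-treatment at 2 and 4 days. By direction, 24 member events rose and 38 fell with GSK591 at 2 days (2.45% and 4.57% of all events) and 32 and 43 at 4 days (4.59% and 6.65%). Co-treatment raised 26 and lowered 76 at 2 days (4.12% and 9.25%), and raised 37 and lowered 61 at 4 days (5.76% and 8.93%). Without library a, 41 member events were called for GSK591 at 2 days, and the share of all events without it is not given here. In all, 1242 of the 1354 member events were tested in at least 1 comparison with DMSO, 197 were called in at least 1 (15.9%, against 16.6% of all events), and 134 in the stricter fit (against 10.8%). They lay in 39 of the 46 genes (84.8%, against 68.9% of all genes with a tested event), and members had 27 tested events per gene on average, against 17.1 over all genes. ANAPC2, CDC20, CENPF, KIF2C, KIF4A, NDC80, and PLK1 had no call.

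Among the mitotic entry kinases and phosphatases, 54 of 238 tested events were called in at least 1 comparison with DMSO (22.7%, against 16.6% of all events, and 42 in the stricter fit), in 9 of 10 genes. Events of a gene overlap and share reads, so the shares by role were not tested. Exon 6 of CDC25B, the phosphatase that starts CDK1 activation at the centrosome, was skipped more often with GSK591. Its Ψ was 0.807, 0.787, and 0.773 with 4-day DMSO. With GSK591 it was 0.555, 0.542, and 0.505 at 2 days and 0.548, 0.546, and 0.488 at 4 days. It was 0.563, 0.604, and 0.61 with GSK591 at 7 days against 0.822, 0.855, and 0.845 with 7-day DMSO. All GSK591 libraries lay far below all DMSO libraries, and over the 3 times they ranged from 0.488 to 0.61. The differences were ΔΨ = -0.255 ± 0.0179 (SE, adjusted p = 2.08e-17, ΔΨ = -0.265 without library a) at 2 days, -0.262 ± 0.022 (SE, adjusted p = 1.13e-20) at 4 days, and -0.249 ± 0.0177 (SE, adjusted p = 2.55e-45) at 7 days. Co-treatment gave 0.533, 0.535, and 0.537 at 2 days and 0.534, 0.6, and 0.541 at 4 days, with ΔΨ = -0.254 ± 0.00977 (SE, adjusted p = 1.98e-22) and -0.231 ± 0.0232 (SE, adjusted p = 1.37e-16). MS023 libraries, at 0.823, 0.811, and 0.791 at 4 days, overlapped with DMSO, with ΔΨ = 0.0196 ± 0.0135 (SE, adjusted p = 0.227). Between the DMSO groups exon 6 was higher at 7 days, with ΔΨ = 0.052 ± 0.0138 (SE, adjusted p = 0.000311, up to 0.166 without 7-day DMSO b or c, 0.611 with events at 0 kept). The skipped form lacks 123 nt and stays in frame.

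CDC25C, the phosphatase that completes CDK1 activation, moved in opposite directions with the inhibitors. Exon 3 had Ψ of 0.618, 0.624, and 0.685 with 4-day DMSO, 0.325, 0.332, and 0.107 with GSK591 at 2 days, and 0.193, 0.172, and 0.344 at 4 days. With MS023 at 4 days it had 0.794, 0.821, and 0.793. GSK591 libraries were all below and MS023 libraries all above DMSO. GSK591 gave ΔΨ = -0.387 ± 0.0768 (SE, adjusted p = 3.21e-06, ΔΨ = -0.422 without library a) at 2 days and -0.406 ± 0.0581 (SE, adjusted p = 2.89e-07) at 4 days, and MS023 gave ΔΨ = 0.16 ± 0.0233 (SE, adjusted p = 0.0121, up to 0.13 without DMSO a or b or MS023 a, b, or c, 0.152 in the stricter fit) at 4 days. At 7 days Ψ was 0.495, 0.432, and 0.395 with DMSO, 0.314, 0.272, and 0.184 with GSK591, and 0.61, 0.8, and 0.602 with MS023. The differences were ΔΨ = -0.184 ± 0.0481 (SE, adjusted p = 0.0306, up to 0.319 without DMSO a, b, or c or GSK591 a, b, or c, 0.205 in the stricter fit) and 0.23 ± 0.0708 (SE, adjusted p = 0.000329, up to 0.156 without DMSO b or c or MS023 b, 0.0532 in the stricter fit). With co-treatment Ψ was 0.359, 0.501, and 0.444 at 2 days and 0.612, 0.624, and 0.289 at 4 days, with ΔΨ = -0.207 ± 0.0465 (SE, adjusted p = 0.00548, up to 0.0899 without co-treatment a or c) and -0.134 ± 0.112 (SE, adjusted p = 0.192), and the 4-day libraries overlapped with DMSO. As few as 26 reads per library lay behind these values. DMSO itself was lower at 7 than at 4 days, with ΔΨ = -0.202 ± 0.0363 (SE, adjusted p = 0.0119, up to 0.181 without 4-day DMSO c or 7-day DMSO a, b, or c, 0.0947 in the stricter fit, 0.596 with events at 0 kept). In CDC25A, the phosphatase of the G1/S and G2/M transitions, exon 6 of 120 nt (chr3:48222211-48222330) went from 0.948, 0.851, and 0.856 with DMSO to 0.545, 0.641, and 0.581 with co-treatment at 4 days, without overlap, with ΔΨ = -0.296 ± 0.042 (SE, adjusted p = 0.000259, 0.056 without co-treatment a).

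In AURKB, exon 6 encodes part of the kinase domain, and the intron before it has a second 3′ splice site 46 nt upstream. Ψ of the exon was 0.942, 0.943, and 0.947 with 4-day DMSO, 0.803, 0.834, and 0.777 with GSK591 at 2 days, and 0.668, 0.823, and 0.654 at 4 days. It was 0.798, 0.765, and 0.681 with GSK591 at 7 days, against 0.925, 0.94, and 0.943 with DMSO. GSK591 libraries lay below DMSO at every time point. The differences were ΔΨ = -0.14 ± 0.0166 (SE, adjusted p = 2.98e-08, ΔΨ = -0.139 without library a), -0.229 ± 0.0543 (SE, adjusted p = 4.31e-10), and -0.188 ± 0.0352 (SE, adjusted p = 3.37e-12), and co-treatment gave -0.214 ± 0.0211 (SE, adjusted p = 2.07e-12) at 2 days and -0.193 ± 0.0159 (SE, adjusted p = 9.18e-08) at 4 days. With MS023 exon 6 was called at 4 days only, with ΔΨ = -0.0629 ± 0.0135 (SE, adjusted p = 0.00119, 0.0898 without MS023 a). Use of the upstream 3′ splice site was 0.0786, 0.0698, and 0.0595 with 4-day DMSO, 0.13, 0.135, and 0.12 with GSK591 at 2 days, and 0.315, 0.179, and 0.248 at 4 days, with ΔΨ = 0.0588 ± 0.00708 (SE, adjusted p = 0.000189, ΔΨ = 0.0578 without library a) and 0.178 ± 0.0399 (SE, adjusted p = 2.2e-10). It rose by 0.109 with co-treatment at 2 days (adjusted p = 2.26e-08) and by 0.0971 at 4 days (adjusted p = 0.000492), and MS023 gave -0.0126 at 4 days (adjusted p = 0.529). These events overlap and share reads, so they are not independent. The added segment spans chr17:8110207-8110252.
AURKB segment of 46 nt upstream of exon 6: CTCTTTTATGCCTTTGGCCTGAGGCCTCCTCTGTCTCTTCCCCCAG

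In AURKA, the kinase of centrosome maturation, the named events lie in the untranslated first part of the transcript. A 98-nt exon (chr20:54963743-54963840) had Ψ of 0.236, 0.275, and 0.232 with 7-day DMSO and 0.505, 0.559, and 0.577 with GSK591 at 7 days, with ΔΨ = 0.299 ± 0.0257 (SE, adjusted p = 1.19e-11). At 4 days GSK591 had 0.487, 0.292, and 0.322 against 0.267, 0.293, and 0.346, which overlapped, with ΔΨ = 0.0645 ± 0.0649 (SE, adjusted p = 0.392). A 5′ splice site that lengthens an untranslated exon by 14 nt (chr20:54967210-54967223) went from 0.358, 0.366, and 0.371 with DMSO to 0.62, 0.52, and 0.628 with GSK591 at 2 days and 0.598, 0.65, and 0.534 at 4 days. The groups did not overlap, with ΔΨ = 0.224 ± 0.0352 (SE, adjusted p = 0.00152, ΔΨ = 0.209 without library a) and 0.229 ± 0.0337 (SE, adjusted p = 0.000846). It was not called with GSK591 at 7 days, with ΔΨ = 0.144 ± 0.0482 (SE, adjusted p = 0.072), or with co-treatment, with ΔΨ = 0.0681 ± 0.0354 (SE, adjusted p = 0.355) at 2 days and 0.139 ± 0.0692 (SE, adjusted p = 0.0672) at 4 days. In CCNB1, a 59-nt segment within the 111-nt exon 8 (chr5:68473118-68473176) had Ψ of 0.997, 0.966, and 0.997 with DMSO and 0.849, 0.922, and 0.862 with co-treatment at 2 days, with ΔΨ = -0.109 ± 0.0247 (SE, adjusted p = 1.87e-07), and co-treatment at 4 days gave ΔΨ = -0.116 ± 0.0377 (SE, adjusted p = 5.99e-06). The 5 single-inhibitor calls of this segment did not hold in the stricter fit, with adjusted p between 0.105 and 0.462, and each was lost without at least 1 library. CDK1 had 2 called events, with ΔΨ from -0.0881 to 0.0716, and CCNB2 and PLK4 had 1 each.

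In the APC/C, separase, and securin group, 47 of 398 tested events were called in at least 1 comparison (11.8%, against 16.6% of all events, and 30 in the stricter fit), in 9 of 11 genes. ANAPC7 encodes a tetratricopeptide-repeat subunit of the APC/C. Ψ of its exon 4 was 0.953, 0.94, and 0.938 with 4-day DMSO, 0.669, 0.744, and 0.731 with GSK591 at 2 days, and 0.708, 0.638, and 0.649 at 4 days. At 7 days it was 0.778, 0.811, and 0.85 with GSK591 and 0.934, 0.945, and 0.969 with DMSO. All GSK591 libraries lay below DMSO, and the values at 7 days were nearer to it. An interaction test of the 7-day against the 4-day effect did not call this difference (adjusted p = 0.562). The differences were ΔΨ = -0.229 ± 0.0235 (SE, adjusted p = 9.66e-12, ΔΨ = -0.206 without library a), -0.279 ± 0.0225 (SE, adjusted p = 9.3e-16), and -0.136 ± 0.0233 (SE, adjusted p = 7.83e-10). Co-treatment gave 0.782, 0.721, and 0.685 at 2 days and 0.73, 0.709, and 0.638 at 4 days, with ΔΨ = -0.215 ± 0.0288 (SE, adjusted p = 5.17e-12) and -0.252 ± 0.0284 (SE, adjusted p = 3.16e-13). MS023 went slightly the other way, to 0.975, 0.983, and 0.977 at 4 days, with ΔΨ = 0.0346 ± 0.00532 (SE, adjusted p = 0.0105, up to 0.146 without DMSO b or c or MS023 a, b, or c, 0.134 in the stricter fit).

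ANAPC11, the RING subunit that recruits the ubiquitin-conjugating enzyme, has a 63-nt untranslated exon 2 (chr17:79851428-79851490). Its Ψ was 0.898, 0.884, and 0.852 with DMSO, 0.934, 0.946, and 0.968 with GSK591, 0.983, 0.99, and 0.995 with co-treatment, and 0.969, 0.926, and 0.953 with MS023 at 4 days. All 3 inhibitor groups lay above DMSO, with ΔΨ = 0.0717 ± 0.0169 (SE, adjusted p = 0.000433), 0.112 ± 0.0142 (SE, adjusted p = 6.75e-08), and 0.0712 ± 0.0185 (SE, adjusted p = 0.00027, up to 0.121 without MS023 a or c). At 7 days neither inhibitor was called, with ΔΨ = -0.0128 ± 0.0257 (SE, adjusted p = 0.506) for GSK591 and 0.0209 ± 0.0286 (SE, adjusted p = 0.388) for MS023. CDC16 exon 2 of 55 nt (chr13:115002120-115002174) had Ψ of 0.964, 0.894, and 0.988 with DMSO and of 1 in every library of GSK591 at 4 days, MS023 at 2 days, and co-treatment at 4 days. GSK591 gave ΔΨ = 0.0513 ± 0.0282 (SE, adjusted p = 0.0309, up to 0.236 without DMSO a or b or GSK591 a, b, or c, 0.091 in the stricter fit), MS023 gave 0.0513 ± 0.0282 (SE, adjusted p = 0.0323, up to 0.337 without DMSO b or MS023 a, b, or c, 0.207 in the stricter fit), and co-treatment gave 0.0513 ± 0.0282 (SE, adjusted p = 0.033, up to 0.208 without DMSO a or b or co-treatment a, b, or c, 0.0874 in the stricter fit). CDC27 had 8 called events with ΔΨ from -0.442 to 0.09, ANAPC1 had 3, PTTG1 had 3, and CDC23 had 1. The genome holds near-identical copies of stretches of CDC27, so its reads may be misassigned.

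Of 5 named RI events of this group, 3 were higher with GSK591 at 4 days. The other 2, a 149-nt segment of ANAPC5 at 0.978, 0.975, and 0.97 and a 752-nt segment of ESPL1 at 0.963, 0.971, and 0.898 with 4-day DMSO, had no call in 8 comparisons. The 149-nt segment contains the whole of intron 14 of ANAPC5, whose Ψ in the same libraries was 0.0293, 0.0299, and 0.0392. Ψ of the 149-nt segment is therefore not the share of transcripts that keep all of it. Intron 3 of ANAPC5 had Ψ of 0.0644, 0.0635, and 0.0665 with 4-day DMSO, 0.103, 0.0855, and 0.0951 with GSK591, 0.0394, 0.0423, and 0.0512 with MS023, and 0.0363, 0.039, and 0.0394 with co-treatment at 4 days. GSK591 libraries were above DMSO, whereas MS023 and co-treatment libraries were below it. The differences were ΔΨ = 0.0298 ± 0.00522 (SE, adjusted p = 0.000213) for GSK591, -0.0205 ± 0.00366 (SE, adjusted p = 0.00648, up to 0.0613 without MS023 a or b) for MS023, and -0.0265 ± 0.00133 (SE, adjusted p = 1.5e-05) for co-treatment. At 7 days GSK591 had 0.129, 0.11, and 0.106 against 0.0812, 0.0759, and 0.0759, with ΔΨ = 0.0375 ± 0.0074 (SE, adjusted p = 0.000375). The 76-nt intron 14 of the same gene rose with GSK591 and also with co-treatment. It had 0.0293, 0.0299, and 0.0392 with DMSO, 0.0454, 0.0543, and 0.0742 with GSK591, and 0.0558, 0.0647, and 0.0502 with co-treatment at 4 days, with ΔΨ = 0.0252 ± 0.00911 (SE, adjusted p = 0.00648, 0.0736 without GSK591 c) and 0.0241 ± 0.00529 (SE, adjusted p = 0.00497). Intron 20 of ESPL1, which encodes separase, measures 390 nt (chr12:53682484-53682873). It went from 0.0445, 0.0514, and 0.0378 with DMSO to 0.104, 0.0745, and 0.124 with GSK591 at 4 days and 0.113, 0.104, and 0.0906 with co-treatment at 2 days, with ΔΨ = 0.056 ± 0.0148 (SE, adjusted p = 0.00343) and 0.0579 ± 0.00751 (SE, adjusted p = 0.00131). GSK591 at 2 days gave ΔΨ = 0.0578 ± 0.0223 (SE, adjusted p = 0.01, 0.0986 without GSK591 b, ΔΨ = 0.0503 without library a). Co-treatment at 4 days and GSK591 at 7 days were not called, with ΔΨ = 0.00542 ± 0.0103 (SE, adjusted p = 0.695) and 0.0416 ± 0.0282 (SE, adjusted p = 0.208).

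The centromere, kinetochore, and passenger proteins had 26 of 176 tested events called (14.8%, against 16.6% of all events, and 16 in the stricter fit), in 6 of 8 genes. CENPT links centromeric nucleosomes to the outer kinetochore. Its 301-nt intron 11 was kept in many transcripts even with DMSO, at 0.657, 0.639, and 0.513 at 4 days. GSK591 gave 0.777, 0.834, and 0.847 at 2 days and 0.855, 0.861, and 0.82 at 4 days, and co-treatment gave 0.804, 0.795, and 0.865 at 4 days. All of these libraries lay above DMSO, with ΔΨ = 0.216 ± 0.0502 (SE, adjusted p = 0.00114, ΔΨ = 0.237 without library a) and 0.242 ± 0.0471 (SE, adjusted p = 4.16e-05) for GSK591 and 0.218 ± 0.0504 (SE, adjusted p = 3.83e-05) for co-treatment. At 7 days GSK591 had 0.729, 0.71, and 0.78 and DMSO had 0.735, 0.764, and 0.738, which overlapped, with ΔΨ = -0.00556 ± 0.0226 (SE, adjusted p = 0.916). DMSO was higher at 7 than at 4 days, with ΔΨ = 0.142 ± 0.0462 (SE, adjusted p = 0.0238, up to 0.11 without 4-day DMSO c or 7-day DMSO a, b, or c, 0.0718 in the stricter fit, 0.103 with events at 0 kept). MS023 had 0.396, 0.517, and 0.471 at 4 days, where library b overlapped with the lowest DMSO library, and 0.518, 0.501, and 0.543 at 7 days, where all libraries lay below DMSO, with ΔΨ = -0.142 ± 0.0574 (SE, adjusted p = 0.0376, up to 0.214 without DMSO a or b or MS023 a, b, or c, 0.171 in the stricter fit) and -0.225 ± 0.0152 (SE, adjusted p = 1.46e-05).

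The intron before it, intron 10 of 667 nt (chr16:67864452-67865118), had 0.192, 0.135, and 0.144 with DMSO, 0.258, 0.253, and 0.258 with GSK591, and 0.222, 0.303, and 0.242 with co-treatment at 4 days. Both groups lay above 4-day DMSO, with ΔΨ = 0.0995 ± 0.0178 (SE, adjusted p = 0.000511) and 0.0986 ± 0.0301 (SE, adjusted p = 0.000893). DMSO itself was higher at 7 days, at 0.206, 0.254, and 0.25, with ΔΨ = 0.0797 ± 0.0236 (SE, adjusted p = 0.0191, up to 0.116 without 4-day DMSO b or c or 7-day DMSO b or c, 0.0799 with events at 0 kept). Neither inhibitor was called for intron 10 at 7 days. MS023 at 4 days gave 0.193, 0.19, and 0.217, which overlapped with DMSO, with ΔΨ = 0.0431 ± 0.0197 (SE, adjusted p = 0.172). By contrast the 100-nt intron 5 fell with co-treatment, from 0.765, 0.925, and 0.77 to 0.55, 0.513, and 0.571 at 4 days, with ΔΨ = -0.275 ± 0.0555 (SE, adjusted p = 0.00316). GSK591 at 4 days had 0.657, 0.758, and 0.738 there, with ΔΨ = -0.102 ± 0.0611 (SE, adjusted p = 0.328). Under co-treatment the introns of CENPT thus differed in direction, and intron 5 had 42 to 90 reads per library in these 4-day groups.

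INCENP, the scaffold of the chromosomal passenger complex, carries a 12-nt exon 11 that adds 4 codons. Its Ψ was 0.495, 0.5, and 0.497 with 4-day DMSO, 0.624, 0.659, and 0.583 with GSK591, and 0.713, 0.726, and 0.784 with co-treatment at 4 days. Both groups lay above DMSO, with ΔΨ = 0.124 ± 0.0221 (SE, adjusted p = 0.00132) and 0.244 ± 0.0218 (SE, adjusted p = 2.25e-07). At 7 days GSK591 gave 0.698, 0.601, and 0.653 against 0.431, 0.532, and 0.453, with ΔΨ = 0.178 ± 0.0417 (SE, adjusted p = 0.000267, up to 0.0873 without DMSO a or c or GSK591 a). At 2 days the GSK591 value was smaller without the library that stands apart, with ΔΨ = 0.117 ± 0.0522 (SE, adjusted p = 0.0154, up to 0.213 without DMSO a, b, or c or GSK591 a or c, 0.288 in the stricter fit, ΔΨ = 0.077 without library a). With MS023 it was called at 4 days, with ΔΨ = 0.103 ± 0.0225 (SE, adjusted p = 0.00956, up to 0.204 without DMSO a or b or MS023 a, b, or c, 0.124 in the stricter fit).

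NUF2, a subunit of the NDC80 complex that binds microtubules, has a 229-nt exon (chr1:163292657-163292885) in its untranslated first part. Its Ψ was 0.0372, 0.0605, and 0.0731 with DMSO, 0.214, 0.217, and 0.424 with GSK591, and 0.181, 0.619, and 0.345 with co-treatment at 4 days, on as few as 21 reads. The groups did not overlap, with ΔΨ = 0.228 ± 0.0702 (SE, adjusted p = 6.03e-05) and 0.325 ± 0.128 (SE, adjusted p = 1.01e-05), and MS023 had 0.068, 0.0429, and 0.0605. In CENPA a 332-nt segment (chr2:27015370-27015701) that crosses exon ends of the canonical transcript had 0.968, 0.943, and 1 with co-treatment at 2 days against 0.618, 0.723, and 0.695, with ΔΨ = 0.292 ± 0.0355 (SE, adjusted p = 6.55e-06). With GSK591 it gave ΔΨ = 0.187 ± 0.0829 (SE, adjusted p = 0.0489, up to 0.341 without DMSO a, b, or c or GSK591 a or c, 0.301 in the stricter fit) at 4 days, where library b overlapped with DMSO, and 0.2 ± 0.0385 (SE, adjusted p = 0.0285, up to 0.179 without DMSO a, b, or c or GSK591 a, b, or c, 0.169 in the stricter fit) at 7 days. Co-treatment at 4 days was not called, with ΔΨ = 0.169 ± 0.0531 (SE, adjusted p = 0.134). CENPE, the kinetochore motor, had 6 called events. Of these, exon 5 of 120 nt (chr4:104116271-104116390) went from 1, 0.923, and 0.961 with DMSO to 0.772, 0.751, and 0.567 with co-treatment at 2 days, with ΔΨ = -0.264 ± 0.0687 (SE, adjusted p = 0.000144), but co-treatment at 4 days had 0.643, 0.896, and 1, with ΔΨ = -0.115 ± 0.108 (SE, adjusted p = 0.141). BIRC5 had 4 called events with ΔΨ from -0.127 to 0.0393.

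The spindle motors and microtubule binders had 32 of 245 tested events called (13.1%, against 16.6% of all events, and 26 in the stricter fit), in 6 of 8 genes. The largest ΔΨ among all called member events was that of the 79-nt form of exon 22 of KIF23, the motor of the centralspindlin complex, under co-treatment at 2 days. Ψ is that of this form, and the share of transcripts that keep exon 22 in any form was not computed. The 79-nt form had Ψ of 0.829, 0.796, and 0.814 with 4-day DMSO. GSK591 gave 0.559, 0.484, and 0.502 at 2 days and 0.708, 0.537, and 0.592 at 4 days, MS023 gave 0.697, 0.768, and 0.73 and 0.64, 0.69, and 0.695, and co-treatment gave 0.296, 0.323, and 0.348 and 0.416, 0.395, and 0.377. Every inhibitor library of 2 and 4 days lay below DMSO, and co-treatment lay below both single inhibitors. GSK591 gave ΔΨ = -0.298 ± 0.0244 (SE, adjusted p = 2.27e-11, ΔΨ = -0.32 without library a) at 2 days and -0.2 ± 0.0514 (SE, adjusted p = 4.61e-07) at 4 days. With MS023 the values were ΔΨ = -0.0815 ± 0.0226 (SE, adjusted p = 0.0152, up to 0.256 without DMSO a or c or MS023 a or c, 0.194 in the stricter fit) and -0.138 ± 0.02 (SE, adjusted p = 1.08e-05). Co-treatment gave ΔΨ = -0.491 ± 0.0178 (SE, adjusted p = 8.7e-21) and -0.417 ± 0.015 (SE, adjusted p = 1.03e-13). At 7 days GSK591 had 0.712, 0.751, and 0.759, which overlapped with 0.729, 0.762, and 0.797 of DMSO, with ΔΨ = -0.0223 ± 0.0243 (SE, adjusted p = 0.56), while MS023 had 0.639, 0.657, and 0.663, with ΔΨ = -0.109 ± 0.0208 (SE, adjusted p = 5.07e-05). Set directly against GSK591, co-treatment was lower at 2 days, with ΔΨ = -0.193 ± 0.0269 (SE, adjusted p = 5.85e-10, 0.241 with events at 0 kept, ΔΨ = -0.171 without library a), and at 4 days, with ΔΨ = -0.217 ± 0.0517 (SE, adjusted p = 5.94e-05, 0.347 with events at 0 kept).

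A second change in KIF23 concerned exon 19 of 312 nt (chr15:69733107-69733418), paired with an exon of 252 nt as mutually exclusive. Ψ of exon 19 was 0.097, 0.102, and 0.109 with DMSO, 0.207, 0.186, and 0.189 with co-treatment at 2 days, and 0.274, 0.272, and 0.242 at 4 days. Co-treatment libraries lay above DMSO, with ΔΨ = 0.0914 ± 0.00748 (SE, adjusted p = 1.26e-07) and 0.16 ± 0.0109 (SE, adjusted p = 3.7e-09). MS023 at 4 days had 0.147, 0.154, and 0.166, with ΔΨ = 0.0527 ± 0.00649 (SE, adjusted p = 0.000519), and GSK591 had 0.111, 0.136, and 0.106, with ΔΨ = 0.0152 ± 0.00985 (SE, adjusted p = 0.461). Co-treatment differed from GSK591 at 4 days by 0.145 ± 0.0139 (SE, adjusted p = 7.42e-15).

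PRC1, which bundles the antiparallel microtubules of the central spindle, changed at 3 segments. The 78-nt intron 4 went from 0.0577, 0.0401, and 0.0478 with DMSO to 0.0951, 0.086, and 0.11 with GSK591 at 2 days and 0.108, 0.126, and 0.093 with co-treatment. Both lay above DMSO, with ΔΨ = 0.0485 ± 0.00862 (SE, adjusted p = 0.000559, ΔΨ = 0.0495 without library a) and 0.0607 ± 0.0109 (SE, adjusted p = 1.88e-05). Exon 5 of 171 nt (chr15:91524729-91524899), which directly follows this intron, fell from 0.994, 0.987, and 0.991 to 0.954, 0.952, and 0.946 with GSK591 and 0.931, 0.892, and 0.934 with co-treatment at 2 days, with ΔΨ = -0.0397 ± 0.00318 (SE, adjusted p = 6.31e-07, ΔΨ = -0.0416 without library a) and -0.0715 ± 0.0137 (SE, adjusted p = 2.39e-11). Exon 14 of 42 nt (chr15:91512309-91512350) had 0.634, 0.582, and 0.625 with DMSO and 0.475, 0.472, and 0.483 with co-treatment at 2 days, with ΔΨ = -0.137 ± 0.0164 (SE, adjusted p = 1.22e-05). At 4 days co-treatment had 0.611, 0.647, and 0.569, which overlapped with DMSO, with ΔΨ = -0.00483 ± 0.0279 (SE, adjusted p = 0.909). Exon 5 was also called with MS023 at 2 days and exon 14 with MS023 at 4 days, and their values and refits are not given here. Of 8 comparisons with DMSO, exon 14 was called in 2, and in 1 in the stricter fit.

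NUSAP1, a microtubule stabilizer, has a 3′ splice site that was called with MS023 and not with GSK591. It decides on 45 nt of exon 4 (chr15:41643186-41643230), with Ψ of 0.634, 0.597, and 0.643 with DMSO, 0.533, 0.483, and 0.573 with MS023 at 2 days, and 0.524, 0.528, and 0.544 at 4 days. MS023 libraries lay below DMSO, with ΔΨ = -0.0954 ± 0.0295 (SE, adjusted p = 0.0019, up to 0.263 without MS023 a or b, 0.0824 in the stricter fit) and -0.0929 ± 0.0152 (SE, adjusted p = 0.00697, up to 0.116 without DMSO c or MS023 a, b, or c). The site was also called with MS023 at 7 days, and its value and refits there are not given here. Of 8 comparisons with DMSO it was called in 4, and in 2 in the stricter fit. Co-treatment at 4 days had 0.418, 0.477, and 0.498, with ΔΨ = -0.16 ± 0.0276 (SE, adjusted p = 0.000103), and GSK591 had 0.651, 0.578, and 0.53, with ΔΨ = -0.0385 ± 0.0379 (SE, adjusted p = 0.427). The difference between the inhibitors was ΔΨ = 0.099 ± 0.0374 (SE, adjusted p = 0.00675, up to 0.207 without MS023 b or GSK591 c, 0.127 in the stricter fit, 0.294 with events at 0 kept, ΔΨ = 0.1 without library a) at 2 days and 0.0544 ± 0.0357 (SE, adjusted p = 0.31) at 4 days. KIF20A and KIF11 had 2 called events each, with ΔΨ from -0.0918 to -0.0225, and TPX2 had 1, with ΔΨ between -0.00994 and -0.00855.

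Of the 6 roles, the spindle checkpoint had the fewest events, of which 8 of 67 tested were called (11.9%, against 16.6% of all events, and 5 in the stricter fit) across BUB1, BUB1B, BUB3, TTK, MAD1L1, and MAD2L1. The only checkpoint event among those named is a 71-nt exon of the kinase TTK (chr6:80715822-80715892), which lies within intron 2 of the canonical transcript. Its Ψ was 0.037, 0.0459, and 0.0604 with DMSO, 0.106, 0.113, and 0.184 with MS023, and 0.0301, 0.00379, and 0.0224 with GSK591 at 2 days. MS023 libraries lay above and GSK591 libraries below DMSO, with ΔΨ = 0.0867 ± 0.0258 (SE, adjusted p = 0.00239, up to 0.157 without MS023 a, b, or c, 0.0617 in the stricter fit) and -0.029 ± 0.0104 (SE, adjusted p = 0.119, ΔΨ = -0.0347 without library a). Set directly against each other, the inhibitors differed, with ΔΨ = -0.116 ± 0.0261 (SE, adjusted p = 1.74e-06, 0.138 with events at 0 kept, ΔΨ = -0.121 without library a). Called values of the other 5 genes lay between -0.131 (MAD1L1) and 0.0354 (MAD2L1).

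The 3 cytokinesis genes had 30 of 118 tested events called (25.4%, against 16.6% of all events, and 15 in the stricter fit). ECT2 is the exchange factor that activates RhoA at the cleavage furrow. Ψ of its 93-nt exon 4 was 0.649, 0.657, and 0.602 with 4-day DMSO, 0.701, 0.764, and 0.751 with GSK591, and 0.85, 0.877, and 0.831 with co-treatment at 4 days. At 7 days it was 0.645, 0.613, and 0.589 with DMSO, 0.79, 0.792, and 0.869 with GSK591, and 0.776, 0.703, and 0.698 with MS023. All of these inhibitor groups lay above DMSO. GSK591 at 2 days had 0.629, 0.703, and 0.722, and library a overlapped with DMSO, with ΔΨ = 0.0487 ± 0.0331 (SE, adjusted p = 0.079, ΔΨ = 0.0765 with adjusted p = 0.0391 without library a). The differences were ΔΨ = 0.103 ± 0.0258 (SE, adjusted p = 9.23e-05, 0.0519 without GSK591 c) and 0.217 ± 0.0218 (SE, adjusted p = 2.62e-11) at 4 days and 0.201 ± 0.0306 (SE, adjusted p = 1.41e-13) and 0.11 ± 0.0301 (SE, adjusted p = 1.59e-06, 0.0912 without MS023 a) at 7 days. Exon 4 was also called with MS023 at 2 days (adjusted p = 9.01e-05, up to 0.11 without MS023 b or c), and its ΔΨ is not given here. Co-treatment exceeded GSK591 alone at 2 days, with ΔΨ = 0.133 ± 0.0322 (SE, adjusted p = 1.84e-08, 0.398 with events at 0 kept, ΔΨ = 0.105 without library a), and at 4 days, with 0.114 ± 0.0235 (SE, adjusted p = 1.83e-05, 0.266 with events at 0 kept).

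Anillin (ANLN), the scaffold of the contractile ring, has a 111-nt exon 9 (chr7:36456689-36456799) with Ψ of 0.686, 0.694, and 0.694 with 7-day DMSO and 0.825, 0.868, and 0.853 with GSK591. All GSK591 libraries lay above DMSO, with ΔΨ = 0.157 ± 0.0129 (SE, adjusted p = 5.69e-08). Co-treatment at 4 days had 0.867, 0.845, and 0.873 against 0.718, 0.748, and 0.695, with ΔΨ = 0.141 ± 0.0173 (SE, adjusted p = 3.03e-06), whereas GSK591 at 4 days was not called, with ΔΨ = 0.0528 ± 0.0315 (SE, adjusted p = 0.153). A 54-nt exon of ANLN (chr7:36467916-36467969) within intron 20 went from 0.139, 0.1, and 0.167 with DMSO to 0.288, 0.231, and 0.224 at 2 days and 0.371, 0.342, and 0.333 at 4 days with co-treatment, with ΔΨ = 0.113 ± 0.0278 (SE, adjusted p = 3.17e-05) and 0.213 ± 0.0223 (SE, adjusted p = 5.52e-08). The 54-nt exon was also called with GSK591 at 4 days (adjusted p = 0.00544, up to 0.157 without DMSO b or GSK591 a, b, or c). With MS023 it was called at 7 days (adjusted p = 0.00298, up to 0.183 without DMSO a, b, or c or MS023 a or b). Of 8 comparisons with DMSO it was called in 4, and in 2 in the stricter fit. Its ΔΨ with single inhibitors is not given here. Both exons have lengths divisible by 3. RACGAP1, the centralspindlin partner of KIF23, had 14 called events, of which 4 held in the stricter fit, with ΔΨ from -0.206 to 0.131.

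Over all 6 roles, more retained introns of members rose than fell with GSK591, as among all RI. With GSK591, 5 of 22 tested member RI rose at 2 days (24% of all RI), 7 of 22 at 4 days (33.9%), and 2 of 22 at 7 days (21.8%). With MS023, 1 of 22 fell at 2 days (4.21%) and 2 of 22 at 4 days (5.6%). Co-treatment raised 5 of 23 at 2 days (29.7%) and 5 of 21 at 4 days (33.6%), and lowered 3 (5.03%) and 2 (6.1%). Median ΔΨ of member RI with GSK591 was 0.00992 at 2 days and 0.00777 at 4 days, beside 0.015 and 0.0196 over all RI. Some segments listed as RI had a very high Ψ, such as a 1127-nt stretch of CENPT with Ψ of 1, 0.975, and 0.953 with 4-day DMSO, which had no call against DMSO. That stretch crosses exon ends of the canonical transcript and contains introns 10 and 11. Intron 10 alone had Ψ of 0.192, 0.135, and 0.144 in the same libraries. Ψ of the stretch is therefore not the share of transcripts that keep all of it.

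The inhibitors were also compared with each other at equal times, which tests their difference itself. Between GSK591 and MS023, 75 of 567 (13.2%, against 11.7% of all events, and 58 in the stricter fit) member events were called at 2 days, 83 of 508 (16.3%, against 17.1% of all events, and 61 in the stricter fit) at 4 days, and 57 of 454 (12.6%, against 14.7% of all events, and 37 in the stricter fit) at 7 days. Without library a the 2-day count was 63. CDC25C exon 3 differed by -0.5 ± 0.0758 (SE, adjusted p = 3.05e-13, 0.116 with events at 0 kept, ΔΨ = -0.535 without library a) at 2 days, -0.566 ± 0.0548 (SE, adjusted p = 2.65e-15) at 4 days, and -0.414 ± 0.075 (SE, adjusted p = 5.05e-08, 0.163 with events at 0 kept) at 7 days. CDC25B exon 6 differed by -0.267 ± 0.0159 (SE, adjusted p = 1.86e-35, ΔΨ = -0.278 without library a), -0.281 ± 0.0219 (SE, adjusted p = 1.46e-44), and -0.245 ± 0.0198 (SE, adjusted p = 4.19e-37) at the same times. For ANAPC7 exon 4 the differences were -0.255 ± 0.0233 (SE, adjusted p = 2.12e-21, ΔΨ = -0.233 without library a), -0.314 ± 0.0221 (SE, adjusted p = 2.36e-30), and -0.162 ± 0.0245 (SE, adjusted p = 1.22e-12, 0.114 with events at 0 kept). CENPT intron 11 was higher with GSK591 throughout, by 0.32 ± 0.0291 (SE, adjusted p = 1.62e-06, ΔΨ = 0.341 without library a), 0.384 ± 0.0375 (SE, adjusted p = 2.44e-10), and 0.219 ± 0.024 (SE, adjusted p = 6.79e-07). ANAPC5 intron 3 was higher by 0.0503 ± 0.00624 (SE, adjusted p = 3.72e-09) at 4 days. Co-treatment against GSK591 alone gave 36 of 539 (6.68%, against 4.41% of all events, and 21 in the stricter fit) at 2 days and 29 of 496 (5.85%, against 6.53% of all events, and 17 in the stricter fit) at 4 days, and the 2-day count was 32 without library a. ANAPC5 intron 3 was lower with co-treatment than with GSK591, with ΔΨ = -0.0564 ± 0.00523 (SE, adjusted p = 2.43e-10) at 4 days. These tables share their DMSO libraries. The counts rest on leaving out events with 1 form at 0 reads. With such events kept, 14, 22, and 6 member events were called between GSK591 and MS023 at 2, 4, and 7 days, and 0 and 3 between co-treatment and GSK591 at 2 and 4 days. Shares of all events with such events kept, or without library a, are not given here. The stricter fit called 8.54%, 12.8%, and 10.8% of all events between GSK591 and MS023, and 2.3% and 3.71% between co-treatment and GSK591.

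Beyond the members, 153 other gene symbols of the same pathways were followed as lists, none of them shared with the members. With GSK591 at 4 days, 68 of 1978 tested events rose and 121 fell (9.56% called, against 11.2% of all events). With co-treatment 78 of 1909 rose and 182 fell (13.6%, against 14.7%), and with MS023 24 of 1958 rose and 64 fell (4.49%, against 3.75%). Within these lists at 4 days of GSK591, 11 of 86 events of other APC/C genes were called (12.8%), as were 25 of 188 of cytokinesis (13.3%), 54 of 471 of kinetochore and checkpoint (11.5%), 59 of 630 of spindle and centrosome (9.37%), 24 of 357 of cohesin and condensin (6.72%), and 16 of 246 of mitotic entry (6.5%).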

How the data were processed

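The authors trimmed reads (Trim Galore 0.6.5), aligned them to hg19 with STAR (2.4.2a), per the labels, and deposited 8 rMATS tables, each with the reads for inclusion and skipping of an event per library as whole-number counts, not normalized, with effective lengths. The deposited p-values, FDR, and differences were not used. DMSO counts were identical between tables (0 events differed), 0 columns of per-sample values were left out, and Ψ recomputed here differed from the deposited Ψ, a fraction given per library, by at most 5e-04. Both counts were fitted with a quasi-binomial model in R 4.3.3, with the dispersion moderated by squeezeVar of limma 3.58.1 and held at 1 or above, an F test, and Benjamini-Hochberg adjustment over all events of a type and comparison. The stricter fit uses the larger of the trended and the event's own dispersion, and other trended versions were looked at before it was chosen. Each fit was repeated without each library in turn, and the highest adjusted p is given where a call was lost. The fits were also run on simulated data, and that outcome is not reported here. Splice sites were checked in GRCh37: 25 of 25 member introns and 517 of 521 cassette exons had splice-site ends. Events named are, per comparison with DMSO, the 10 called events of largest absolute ΔΨ with at least 20 reads per library and at most 1 per gene and type, RI called in 2 or more comparisons, and the 5 RI of highest DMSO Ψ. Members and lists were chosen with earlier results of these data known. An interaction test compared the effects of 7 and 4 days, without the stricter fit and without refits that leave out a library. A leukocyte marker of the fixed list is not reported here.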

Additional observations from a re-analysis of the deposited data

Results flagged for a closer look

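In 3 named events the effect of GSK591 differed between 7 and 4 days, each measured against DMSO of its own day, by an interaction test on the log2 odds of Ψ over 12 libraries. The interaction of the 79-nt form of KIF23 exon 22 was 1.35 (adjusted p = 0.0178), from a fall of 0.2 in Ψ at 4 days to ΔΨ = -0.0223 at 7 days. For CENPT intron 11 it was -1.88 (adjusted p = 0.00648), from ΔΨ = 0.242 at 4 days to -0.00556 at 7 days, and DMSO itself differed there between the days. For the untranslated 98-nt exon of AURKA it was 1.54 (adjusted p = 0.0255), from ΔΨ = 0.0645 at 4 days to 0.299 at 7 days. The same exon between other flanking exons gave 1.1, which missed the threshold (adjusted p = 0.0599), and its Ψ differed between the DMSO groups, with ΔΨ = -0.0779 ± 0.0128 (SE, adjusted p = 0.0111, up to 0.183 without 4-day DMSO b or 7-day DMSO a, b, or c, 0.124 in the stricter fit, 0.596 with events at 0 kept). Among all member events the test called 7 of 490 for GSK591, beside 1.52% of all events. It was run without the stricter fit and without refits that leave out a library.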

How the results depend on the processing

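Of 104 called results of named events, all kept their direction in Ψ without length correction, which leaves the test itself unchanged. When 1 library was left out, the ΔΨ farthest from the main value kept its direction in all. The other alternatives change the test and not ΔΨ, so they cannot show a reversal. A minimum of 20 reads and Ψ without length correction lost 0 calls, a minimum of 1 read lost 2, adjustment over all event types lost 4, the stricter fit lost 25, and leaving out 1 library lost 48 at least once. A limma fit of log2 odds, which weights events alike whatever their reads, lost 78. Its counts of called member events were 3, 9, and 3 for GSK591 at 2, 4, and 7 days, 27 and 41 for co-treatment at 2 and 4 days, 0, 0, and 1 for MS023, 6, 22, and 7 for GSK591 against MS023, 0 and 0 for co-treatment against GSK591, and 4 for DMSO at 7 against 4 days. The stricter fit gave 37 and 28 for GSK591 at 2 and 7 days, 67 for co-treatment at 2 days, 5, 14, and 11 for MS023, 37 for GSK591 against MS023 at 7 days, 21 and 17 for co-treatment against GSK591, and 13 for DMSO. Requiring an absolute ΔΨ of 0.05 left 31, 47, and 33 for GSK591, 58 and 63 for co-treatment, 8, 15, and 11 for MS023, 35 and 45 for GSK591 against MS023 at 2 and 4 days, and 21 for co-treatment against GSK591 at 2 days. Keeping events with 1 form at 0 reads left 14, 22, and 6 for GSK591 against MS023, 0 and 3 for co-treatment against GSK591, and 5 for DMSO. It also ended 66 of the 90 calls of named events in these comparisons. The cause of this loss was not tested. Apart from the stricter fit, shares of all events under these settings are not given here, so these counts are not a result about members.

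Leaving out 1 library gave ranges of 33 to 43 (GSK591 2 days, lowest without DMSO b), 43 to 63 (4 days, lowest without GSK591 c), 23 to 29 (7 days, lowest without DMSO b), 59 to 84 (co-treatment 2 days, lowest without co-treatment c), 59 to 86 (4 days, lowest without co-treatment a), 2 to 15 (MS023 2 days, lowest without MS023 c), 6 to 15 (4 days, lowest without MS023 a), 7 to 9 (7 days, lowest without DMSO a), 44 to 66, 50 to 67, and 32 to 43 (GSK591 against MS023), 18 to 32 and 15 to 24 (co-treatment against GSK591), and 8 to 23 (DMSO). Fewer libraries also leave fewer degrees of freedom. With skipped exons alone, the share of reads on members differed from DMSO by -0.145 and -0.322 percentage points for co-treatment at 2 and 4 days and by -0.218 and -0.273 for GSK591 at 4 and 7 days, in place of -0.125, -0.269, -0.183, and -0.23. A count test in edgeR was planned as an alternative and was not run. No paired analysis was possible because the columns carry no replicate numbers that match libraries across groups.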
